A study of Mus musculus with 6 samples.

Results

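The 10 genes followed here through the tumour immune infiltrate encode receptors of natural killer (NK) cells: Ncr1, Klrb1c, Klrd1, Klrk1, Klrc1, Klre1, Klra4, Klra7, Klra8 and Klrg1. They were chosen by symbol, and each of the 10 had a gene expression row in both cell pools, among 32285 genes measured. The series is a CITE-seq experiment, which counts messenger RNAs and antibody tags in the same single cells, on CD45-sorted cells of subcutaneous YUMM1.7 tumours, a transplanted mouse melanoma line. All 16 mice were C57BL/6J females (strain label C57BL/6JRccHsd) aged 8 weeks that carried a floxed Nr3c1 gene (Nr3c1 fl/fl), which encodes the glucocorticoid receptor. The genotypes were Nr3c1 fl/fl alone (floxed mice) and Nr3c1 fl/fl with a LysM-Cre tg/wt transgene (LysM-Cre mice), in which Cre is expressed from the Lyz2 promoter of myeloid cells. Each genotype received either an anti-PD-1 antibody or an isotype control antibody at 12.5 mg/kg, repeatedly for 3 weeks from about day 7, and tumours were taken at day 28. That gave 4 conditions of 4 mice, namely floxed mice with isotype or with anti-PD-1, and LysM-Cre mice with either antibody. Cells of each mouse carried their own hashtag antibody, and 8 mice, 2 of each condition, were mixed in each of 2 pools, E5 and E6. Mice 1 and 2 of a condition are those of pool E5 and mice 3 and 4 those of pool E6, and the numbers serve only as names.

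NK cells read target cells through germline-encoded receptors of opposing sign, without the rearranged antigen receptor of T cells. Activating receptors include NKp46 (Ncr1), NK1.1 (Klrb1c), NKG2D (Klrk1) and the Ly49 receptors Ly49D (Klra4) and Ly49H (Klra8). Inhibitory receptors include the heterodimer of NKG2A (Klrc1) with CD94 (Klrd1), which binds the non-classical MHC class I molecule Qa-1, the Ly49 receptor Ly49G (Klra7), and KLRG1 (Klrg1), which binds cadherins. Ly49 genes are switched on in overlapping subsets of NK cells, and T cells can also acquire some of these receptors.

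Of the 10 genes, 9 lie on chromosome 6, and Ncr1 lies at chr7:4337715-4345184 (GRCm38.p6 build, RefSeq). Klrb1c (chr6:128778485-128788641), Klre1 (chr6:129559365-129585828), Klrd1 (chr6:129588092-129598775), Klrk1 (chr6:129610323-129623903) and Klrc1 (chr6:129666015-129682852) are followed by the Ly49 genes. Klra4 (chr6:130043730-130067301), Klra8 (chr6:130115226-130129898) and Klra7 (chr6:130218605-130233322) share 189.6 kb, and the stretch from Klrb1c to Klra7 measures 1454.8 kb. Klrg1 lies further off at chr6:122270596-122282833. RefSeq promoter sequence was at hand for 8 of the 10, and the 200 bases upstream of the start are shown for the 3 Ly49 genes because single cells often carried them together, as given further on. Capitals mark the longest run that is identical in all 3, GGAAATTTAGTTCT of 14 bases. It starts at base -16 in Klra4 (chr6:130067272-130067471, minus strand), at -26 in Klra7 (chr6:130233323-130233522, minus strand) and at -17 in Klra8 (chr6:130129899-130130098, minus strand), where -1 is the base before the start.
Klra4: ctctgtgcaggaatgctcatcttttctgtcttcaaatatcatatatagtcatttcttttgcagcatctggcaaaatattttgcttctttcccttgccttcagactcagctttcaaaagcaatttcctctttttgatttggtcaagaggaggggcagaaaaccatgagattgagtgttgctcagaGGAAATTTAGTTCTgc
Klra7: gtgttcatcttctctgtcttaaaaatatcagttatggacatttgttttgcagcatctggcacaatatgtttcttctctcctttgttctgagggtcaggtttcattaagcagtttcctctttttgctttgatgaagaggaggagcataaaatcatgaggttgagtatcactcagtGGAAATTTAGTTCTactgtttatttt
Klra8: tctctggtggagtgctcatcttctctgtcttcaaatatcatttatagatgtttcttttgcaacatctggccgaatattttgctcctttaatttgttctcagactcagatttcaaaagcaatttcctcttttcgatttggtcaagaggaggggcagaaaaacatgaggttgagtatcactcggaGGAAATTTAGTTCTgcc
Over these 200 bases the best alignment of Klra4 and Klra8 was 86% identical, that of Klra4 and Klra7 78.5% and that of Klra7 and Klra8 78%. The other 25 pairs among the 8 promoters had 52.5% to 62.5%. The Klra7 and Klra8 windows lie upstream of the annotated genes, whereas the shared run in the Klra4 window lies inside the annotated gene. Among the other windows, that of Klrk1 overlaps its gene and those of Klre1 and Klrc1 lie inside theirs. The transcripts were not compared here. Klra4, Klra7 and Klra8 belong to a multigene family, in which a read that fits several members can be dropped or split, so their values are uncertain to an extent that was not measured.

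The Ncr1 promoter is shown because it was the only one of the 8 with a T-box motif. The motifs searched on both strands were TCACAC for T-box factors such as Eomes and T-bet, TGTGGT for RUNX factors, TTCNNNGAA for STAT factors and the palindromic element of the glucocorticoid receptor. In the Ncr1 sequence (chr7:4337515-4337714, plus strand) capitals mark the T-box motif at -80 (GTGTGA, the other strand) and a RUNX motif on either side of it (TGTGGT, and ACCACA on the other strand).
Ncr1: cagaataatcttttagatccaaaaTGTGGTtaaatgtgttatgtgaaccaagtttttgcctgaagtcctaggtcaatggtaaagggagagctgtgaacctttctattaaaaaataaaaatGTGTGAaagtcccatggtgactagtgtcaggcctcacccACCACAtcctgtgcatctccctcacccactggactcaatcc
RUNX motifs also occurred once each upstream of Klrb1c, Klrk1 and Klrc1, and none was found for Klre1, Klra4, Klra7 or Klra8. The STAT and glucocorticoid receptor letters were in 0 of the 8 windows. Among 27025 RefSeq promoters of the same length, 9.872% held the T-box letters, 11.31% the RUNX letters, 5.584% the STAT letters and 0.259% those of the glucocorticoid receptor. A match of letters is a description and not a binding site. One of the 10 products was also read at the cell surface, by the NK1.1 antibody against the Klrb1c protein, whose 15-base DNA tag is shown because its counts are reported beside those of the gene.
NK1.1: gtaacattactcgtc

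The 2 pools held 15301 and 16614 barcodes with 176338827 and 221763950 gene UMIs (unique molecular identifiers, 1 for each captured RNA molecule). Of the barcode sequences, 805 occurred in both pools. For the 789 whose copies both passed the quality filters, the lower copy had a median of 1.201% of the UMIs of the higher copy. Lower copies more than 10 times smaller than the other were removed. Hashtags assigned 17320 cells to single mice, 135 to 3098 per mouse, with 1538820 to 29701640 gene UMIs per mouse. Cells were clustered with the 10 genes left out of the variable genes, and no cluster was named from any of them, but other genes of NK cells travel with them, so classes are compared by values without a test. Clusters named from fixed markers are called X-like, and 7 clusters stayed unnamed. In macrophage-like cells the Nr3c1 level was 68.5 ± 15.66 CPM (counts-per-million, UMIs of a gene relative to all gene UMIs of the summed cells; mean ± SD, n = 4 mice in each condition) with isotype and 55.43 ± 2.369 with anti-PD-1 in floxed mice, and 44.92 ± 24 and 25.19 ± 5.813 in LysM-Cre mice. These 3′ counts need not cover the deleted exons, and LysM-Cre isotype mouse 4, at 79.8 CPM, lay within the floxed isotype range, while the anti-PD-1 groups did not overlap.

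The NK-like class was 1 cluster of 1133 cells, and the receptor genes were concentrated in it. It held 6.542% of the cells but 88.2% of all UMIs of Klra8, 84.4% of Ncr1, 76.5% of Klrb1c, 67.4% of Klra7, 58.8% of Klra4 and 53.5% of Klre1. For Klrd1 the share was 40.65%, for Klrk1 31.2%, for Klrc1 27.5% and for Klrg1 19.15%, because other classes carried these genes as well. The cluster's 10 leading genes by fold were Gzmc, Gzma, Gzmf, Gzmd, Ncr1, Klrb1c, Klra8, Klra4, Car2 and Gzme, so 4 of the receptor genes led it although they took no part in forming or naming it. Eomes, Prf1 and Gzma are markers by which the cluster was named, so their levels describe it and do not check the label. Eomes stood at 173.7 ± 38.73 CPM, Prf1 at 781.3 ± 215.9 and Gzma at 3338.6 ± 1636.2 (n = 14 mice with at least 20 NK-like cells). T cell genes were low, with Cd3e at 10.93 ± 11.35 CPM, Trac at 13.16 ± 5.541 and Cd8a at 2.648 ± 4.963, against 706.9 ± 74.19, 699.5 ± 94.99 and 749.3 ± 73.77 in CD8 T-like cells (n = 15). Eomes marks conventional NK cells and Itga1, at 161.5 ± 29.68 CPM, marks type 1 innate lymphoid cells, and the cluster was not divided between them.

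**Figure D1:**
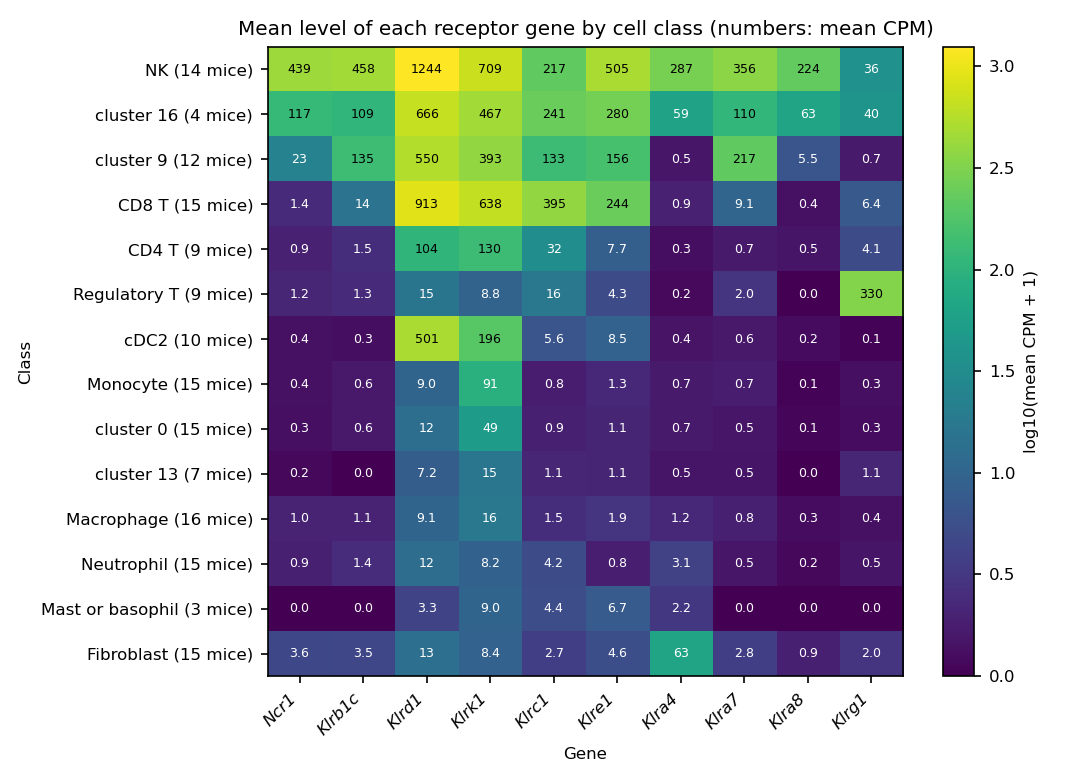
Mean level of each receptor gene (columns) in each cell class (rows) in CPM of counts summed per mouse, averaged over mice that had 20 or more such cells; colour is log10(mean CPM + 1) and the number of mice stands in the row label. The NK-like row is high for all genes but Klrg1, which is highest in regulatory T-like cells (329.7), and Klra4 stands out in the fibroblast-like row (63.3).

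Detection in single cells was compared after each cell was thinned to 2000 UMIs, because cell classes differed in depth. Of 1115 thinned NK-like cells (18 shallower cells were left out), 99.91% had a UMI of at least 1 of the 10 genes and 91.93% of at least 3, with a median of 5 genes per cell. Thinned neutrophil-like cells, which should lack these receptors, had a UMI of at least 1 in 5.093% of 1453 cells and of at least 3 in 0.3441%. Per gene, between 0.06882% (Klra8) and 2.065% (Klrd1) of thinned neutrophil-like cells had a UMI, and shares of that size are read as background. B-like and fibroblast-like cells were also set as classes that should lack these receptors, and had higher shares. At least 1 gene was found in 6.818% of 88 B-like and 12.46% of 923 fibroblast-like cells. Per gene their shares reached 5.682% (Klrd1) and 9.209% (Klra4, taken up below). Median depth before thinning was 9743 UMIs in NK-like and 2900 in neutrophil-like cells.

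Ncr1 encodes NKp46, the natural cytotoxicity receptor, and among the named classes had its highest mean in NK-like cells. Its level there was 439.2 ± 91.55 CPM (n = 14, range 236.1 to 621.5). Cluster 16, an unnamed cluster of 266 cycling cells led by histone genes and Mki67, had 117.4 ± 62.17 CPM (n = 4), and the unnamed cluster 9 had 22.64 ± 21.42 (n = 12). CD8 T-like cells had 1.36 ± 2.72 CPM, with 13 UMIs in all. When hashtags were assigned by another rule, the ratio of a cell's highest to its next hashtag, the level of Ncr1 in CD8 T-like cells was 7.39 CPM, the level of Klrb1c in CD8 T-like cells 54.16 and the level of Klra7 in CD8 T-like cells 73.9, where the rule used throughout gave 1.36, 14.04 and 9.09. Cells were clustered anew under that rule, so the CD8 T-like class changed as well. It then held a cluster of 1714 cells with Trdc among its leading genes, and no separate cluster was led by Trdc and Klra1, as cluster 9 was. A UMI of Ncr1 was found in 57.31% of thinned NK-like cells (88.53% before thinning, 95% Wilson interval of the thinned share 54.39% to 60.18%, which covers counting error only) and in 0 of 1640 thinned CD8 T-like cells.

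Klrb1c encodes NK1.1, the surface protein used to identify NK cells in this strain, and both its RNA and its protein tag marked the same cluster. The RNA level was 457.9 ± 81.91 CPM in NK-like cells, 134.9 ± 48.29 in cluster 9 and 14.04 ± 12.68 in CD8 T-like cells, and ranges of the first 2 did not overlap (348.8 to 673.2 against 25.71 to 240.0). A UMI was found in 59.19% of thinned NK-like cells and 19.78% of thinned cells of cluster 9. The NK1.1 antibody gave a median of 48 tag UMIs per NK-like cell (quartiles 30 and 71) against medians of 1 to 6 in the other classes. Summed per mouse, the tag stood at 92775 ± 19729.5 antibody CPM (scaled likewise to all antibody UMIs, n = 14, range 52491.2 to 121147.6) in NK-like cells, at 22084.4 ± 6898 in cluster 9 (n = 12), 10527.7 ± 2690 in cluster 16 (n = 4) and 2266.6 ± 1017.3 in CD8 T-like cells (n = 15). Among NK-like cells the 1045 with a Klrb1c UMI had a median of 50 tag UMIs and the 88 without one a median of 35. In cluster 9 the tag split with the RNA, with a median of 27.5 tag UMIs in the 264 cells with a Klrb1c UMI and 1 in the 515 without.

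Cluster 9 had T cell genes together with several killer receptors and stayed unnamed because its leading genes (Trdc, Tcf7, Klra1, Klra6, Cd7 and Lef1 first) went against the best name. Its 779 cells had Cd3e at 452.2 ± 77.9 CPM, Trac at 473 ± 83.39, Trdc at 197 ± 110.3 and Cd8a at 177.3 ± 62.33 (n = 12 mice). Klra7, for the inhibitory Ly49G, reached 217.3 ± 93.88 CPM there, which overlapped the NK-like range of 243.3 to 488.0, whereas Klra4 was at 0.5347 ± 1.082 and Klra8 at 5.526 ± 16.01. The Klra8 mean rested on 1 mouse, floxed anti-PD-1 mouse 3 with 55.88 CPM, and 9 of the 12 mice were at 0. The 2 other genes that led it, Klra1 and Klra6, stood at 155.4 ± 94.36 and 83.05 ± 36.34 CPM.

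CD94, encoded by Klrd1, reaches the surface as the partner of an NKG2 protein, and Klrd1 was spread over several lymphoid classes and part of the dendritic ones. Its level was 1243.5 ± 120.5 CPM in NK-like cells (range 1023.6 to 1433.8), 912.9 ± 136.1 in CD8 T-like cells (685.0 to 1197.2), 665.9 ± 78.29 in cluster 16, 550.1 ± 147.1 in cluster 9 (231.4 to 752.1) and 501.1 ± 138.7 in type 2 dendritic (cDC2)-like cells (n = 10, 309.4 to 708.6). Neighbours in that order overlapped, and CD4 T-like cells followed at 104.3 ± 100 (n = 9). A Klrd1 UMI was found in 84.75% of thinned NK-like, 70.55% of CD8 T-like, 51.7% of cDC2-like and 48.78% of 82 plasmacytoid dendritic-like cells. In mature dendritic-like cells the share was 6.593% of 91 (Wilson 3.057% to 13.65%), beside 5.682% of 88 B-like cells. The cDC2-like cells had Klrc1 in 1.136% and Ncr1 in 0 of 528. Their cluster had a mean log2 fold of 3.20 over cDC2 markers and 2.00 over markers of type 1 dendritic cells. No cluster was named for type 1 dendritic cells, and the cDC2-like cluster was not divided between the types.

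Klrc1 encodes NKG2A, the inhibitory partner of CD94, and was the only one of the 10 with its largest part in CD8 T-like cells, which held 46.3% of its UMIs. The level was 395.3 ± 56.77 CPM in CD8 T-like cells (258.0 to 470.1), 240.6 ± 33.34 in cluster 16, 216.8 ± 43.78 in NK-like cells (148.6 to 304.2) and 132.7 ± 47.59 in cluster 9 (25.71 to 184.8), so the CD8 T-like and NK-like ranges overlapped between 258.0 and 304.2. Thinned cells with a UMI made up 49.39% of CD8 T-like cells, 31.66% of NK-like cells, 19.78% of cluster 9 and 4.701% of CD4 T-like cells. Klrc2, for the related NKG2C, was at 147.6 ± 34.17 CPM in NK-like and 143.1 ± 36.79 in CD8 T-like cells, a difference smaller than the spread between mice.

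Klrk1 encodes NKG2D, which binds stress-induced ligands. Its level of 709.2 ± 67.78 CPM in NK-like cells (629.1 to 883.7) overlapped that of CD8 T-like cells, 637.6 ± 92.84 (469.7 to 794.6). Myeloid classes also had it. Levels were 196.2 ± 56.41 CPM in cDC2-like cells (n = 10), 90.61 ± 27.81 in monocyte-like cells (39.85 to 134.1, n = 15) and 16.43 ± 11.47 in macrophage-like cells (n = 16), whose thinned shares with a UMI were 32.77%, 14.64% and 2.485%. The monocyte-like share lay above the 1.583% of neutrophil-like cells, and the macrophage-like share was near it. The 91 thinned mature dendritic-like cells had a share of 35.16% (Wilson 26.14% to 45.39%). Because monocyte-like cells were 17.06% of all cells, they held 10.4% of the Klrk1 UMIs.

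Klre1 encodes a receptor that pairs with Klri1 or Klri2 proteins in NK cells. It stood at 505.4 ± 113.7 CPM in NK-like cells (295.2 to 685.2), 280.1 ± 59.92 in cluster 16, 244.3 ± 96.95 in CD8 T-like cells (up to 422.6) and 155.5 ± 59.39 in cluster 9. Among these, neighbouring ranges overlapped. Klri2 stood at 150.6 ± 48.44 CPM in NK-like and 41 ± 15.1 in CD8 T-like cells.

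Klrg1, an inhibitory receptor of mature effector lymphocytes, was highest outside NK cells. Regulatory T-like cells held 61.2% of its UMIs in 4.238% of the cells. Their level was 329.7 ± 86.33 CPM (n = 9 mice, 183.8 to 464.3) against 36.27 ± 21.43 in NK-like cells (10.61 to 73.78) and 6.362 ± 4.702 in CD8 T-like cells, and these 3 ranges overlapped only between the last pair. A Klrg1 UMI was found in 39.59% of thinned regulatory T-like cells (48.91% before thinning), 6.996% of NK-like cells and 1.28% of CD8 T-like cells, beside 0.2753% of neutrophil-like cells. No other of the 10 genes passed 3% of thinned regulatory T-like cells. Among the fixed ligands, the cadherin gene Cdh1 was highest in cDC2-like cells at 156.3 ± 20.55 CPM.

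All 3 Ly49 genes had their highest mean in NK-like cells, and the class that came next was cluster 9 for Klra7, fibroblast-like cells for Klra4 (with cluster 16 at 59.23 CPM close to them) and cluster 16 for Klra8. Klra4, for the activating Ly49D, was at 287.3 ± 103.2 CPM in NK-like cells (137.7 to 452.6), and Klra7 and Klra8 were at 356.0 ± 75.87 and 223.6 ± 91.02. CD8 T-like cells had 0.9151 ± 1.51 of Klra4, 9.09 ± 18.93 of Klra7 and 0.3857 ± 1.293 of Klra8. The Klra7 value there came mostly from 2 mice with 22 UMIs each, of which single cells held 19 and 18.

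Fibroblast-like cells, a class of 936 cells led by matrix genes such as Mgp, Bgn and Col1a2 although the cells were sorted on CD45, carried Klra4 and little of the other receptors. Klra4 stood at 71.37, 63.44, 97.71 and 34.3 CPM in the floxed isotype mice, at 65.9, 61.02, 68.2 and 96 in the LysM-Cre isotype mice, at 49.53, 69.96 and 38.87 in the floxed mice 1, 3 and 4 given anti-PD-1, and at 32.89, 112.5, 45.47 and 42.99 in the LysM-Cre anti-PD-1 mice. All 15 mice were thus above every class mean of the gene outside NK-like cells and cluster 16 apart from their own, and the conditions overlapped. In the same cells Klra7 was at 2.755 ± 4.891 CPM and Klra8 at 0.8834 ± 2.176. The class held 33.3% of all Klra4 UMIs, 1823 of 5469, in 5.404% of the cells. These were deep cells, with a median of 25419 UMIs, and the share with a Klra4 UMI was 44.87% before thinning and 9.209% after it (Wilson 7.509% to 11.25%), against 0.6882% of thinned neutrophil-like cells. Of the 420 fibroblast-like cells with Klra4, 16 (3.81%) also had a UMI of Ncr1, Klrb1c, Klra7 or Klra8, and so had 19 of the 516 without Klra4 (3.682%). The median NK1.1 tag count was 1 in both sets. Of the 389 NK-like cells with Klra4, 388 (99.74%) had one of those 4 genes. Whether the reads in fibroblast-like cells come from the Klra4 receptor transcript or from other transcripts of its locus was not tested, and the host or tumour origin of these cells was not tested.

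**Figure D2:**
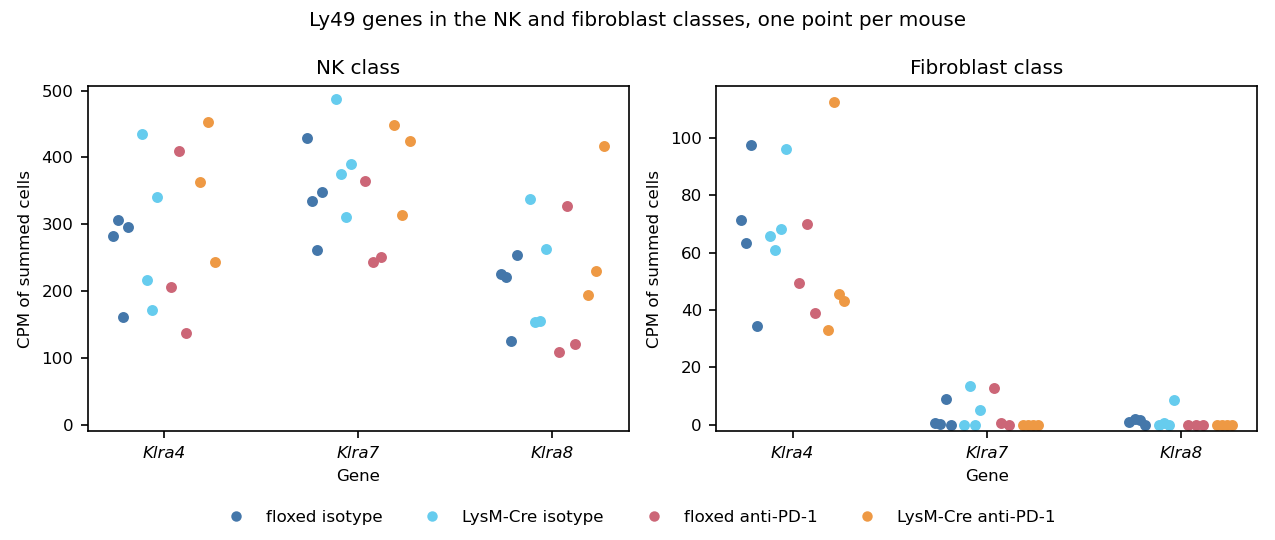
Levels of Klra4, Klra7 and Klra8 in CPM of summed cells, 1 point per mouse coloured by condition, in the NK-like class (left) and the fibroblast-like class (right; the axes differ in scale). Klra4 lies between 32.89 and 112.5 CPM in the 15 fibroblast-like sums, while Klra7 and Klra8 lie near 0 there.

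Single NK-like cells differed in the Ly49 genes they showed. After thinning, 47.89% of 1115 cells had a UMI of none of Klra4, Klra7 and Klra8, 13.36% of Klra7 alone, 6.457% of Klra4 alone and 4.664% of Klra8 alone. Pairs made up 9.148% (Klra4 with Klra7), 6.637% (Klra7 with Klra8) and 5.202% (Klra4 with Klra8), and 6.637% had all 3. Over the 14 mice the share with none was 46.57% ± 9.129 (25% to 60%). Before thinning, 38.75% of 1133 cells had none and 15.36% had all 3, so these shares are set partly by depth.

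Detection of one Ly49 gene went with detection of the others. Klra8 was found in 43.14% of thinned NK-like cells with Klra4 and 15.57% of those without, and the share was higher in the cells with Klra4 in 14 of 14 mice (mean over mice 46.7% ± 8.797 against 16.65% ± 9.276). Klra7 was found in 57.52% of cells with and 27.56% of cells without Klra4, higher in 13 of 14 mice, and Klra8 in 37.09% of cells with and 15.36% of cells without Klra7, also in 13 of 14. Each thinned cell had the same number of UMIs. Before thinning, NK-like cells with a Klra4 UMI had a median of 8445 UMIs and those without one 10399. Whether such differences between cells enter these shares was not tested. Whether reads that fit more than 1 of the 3 genes entered these values was not tested.

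Klrc1 showed the opposite pattern. Klra4 was found in 9.915% of the 353 thinned cells with Klrc1 and in 35.56% of the 762 without, and was lower in the cells with Klrc1 in 14 of 14 mice (mean over mice 11.79% ± 6.725 against 37.12% ± 8.025). For Klra7 the shares were 20.4% and 42.91% (lower in 12 of 14 mice, mean 22.75% ± 12.62 against 43.98% ± 6.609), and for Klra8 9.065% and 29.66% (12 of 14, 12.54% ± 8.287 against 30.99% ± 10.14). Klrc1 itself was about equally frequent whether or not a cell had Klrd1 (31.53% and 32.35%). Ncr1 was found in 42.31% of the 78 cells with Klrg1 and 58.44% of those without, lower in 12 of the 13 mice with such cells. Cells with Klrg1 numbered only 1 to 20 per mouse, and in LysM-Cre isotype mouse 2 the shares were 71.43% and 71.58%. The share with Klrd1 was 85.13% in cells with Ncr1 and 84.24% in those without. These shares describe cells and were not tested, since cells of 1 mouse are not replicates.

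**Figure D3:**
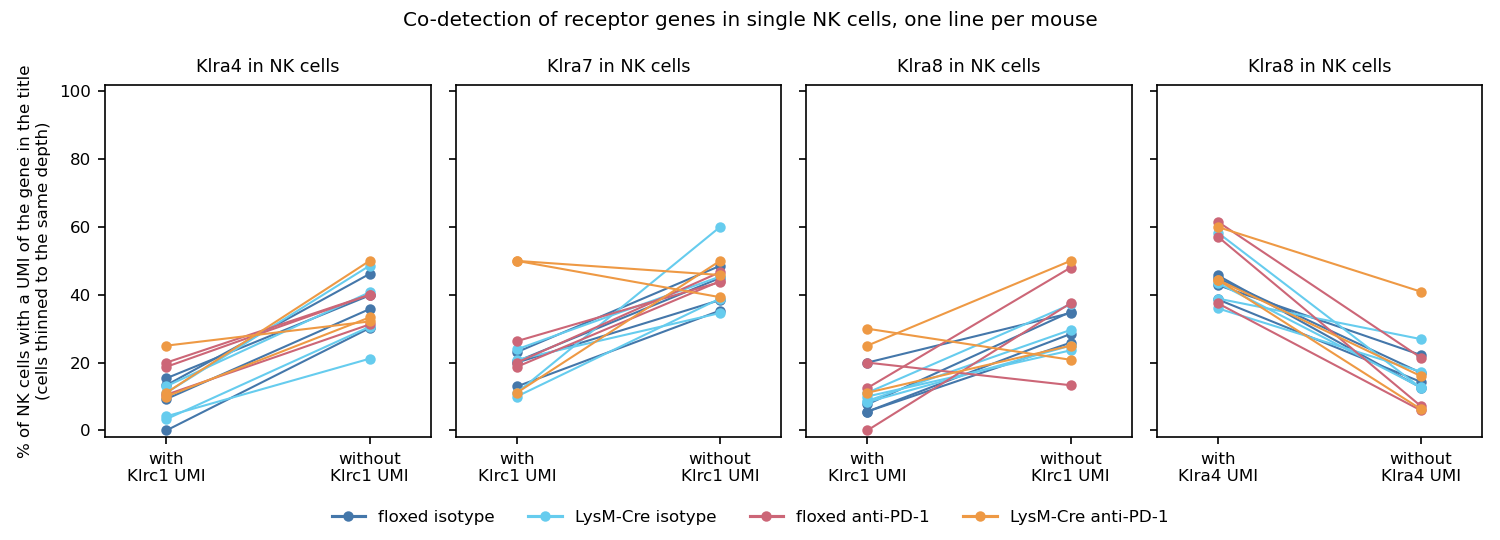
Percent of NK-like cells, thinned to 2000 UMIs, with a UMI of Klra4, Klra7 or Klra8 among cells with and without a Klrc1 UMI (first 3 panels), and of Klra8 among cells with and without a Klra4 UMI (last panel); each line joins the 2 values of 1 mouse. Lines rise from left to right in 14, 12 and 12 of 14 mice in the first 3 panels and fall in 14 of 14 in the last.

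The design asks whether PD-1 blockade or loss of the glucocorticoid receptor in myeloid cells goes with a change of these receptors within NK cells. No change of any of the 10 passed the test. NK-like counts were summed per mouse and fitted with edgeR's quasi-likelihood test on 14 mice, since mouse 2 of each anti-PD-1 group had too few NK-like cells (1 in the floxed and 18 in the LysM-Cre mouse). In simulated counts this fit recovered 54.5% of 2-fold changes, so a change of that size can be missed. Of 5850 genes tested, 0% (0 genes) passed a Benjamini-Hochberg adjusted p of 0.05 for anti-PD-1 in floxed mice, for anti-PD-1 in LysM-Cre mice, for genotype under isotype, for genotype under anti-PD-1 and for the interaction (the difference of the treatment effects between genotypes). In the same order, 251, 402, 165, 321 and 221 genes had an unadjusted p under 0.05, and DESeq2 also called 0 in each. Of the 10 receptor genes 2, 0, 0, 3 and 0 were under that unadjusted level. Their median log2 change was 0.07, 0.09, -0.03, -0.02 and 0.01, beside medians of all genes of -0.00, 0.01, 0.00, 0.02 and 0.00.

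Klrc1 was one of the 2 with the smaller p for anti-PD-1 in floxed mice. It stood at 188, 190.9, 215.8 and 220.3 CPM in the floxed isotype mice, at 263.2, 304.2 and 268.1 in floxed anti-PD-1 mice 1, 3 and 4, at 174.4, 201.6, 217.3 and 160.6 in the LysM-Cre isotype mice and at 240.3, 241.4 and 148.6 CPM in LysM-Cre mice 1, 3 and 4 given anti-PD-1. All floxed anti-PD-1 mice lay above all floxed isotype mice, whereas LysM-Cre mice overlapped. Such separation was not counted over all tested genes, here or for the genes below. The log2 change was 0.42 ± 0.15 (SE, edgeR, adjusted p = 0.9588) in floxed and 0.08 ± 0.17 in LysM-Cre mice, and their difference was -0.33 ± 0.23 (edgeR, adjusted p = 1). Within pools, the mean was higher with anti-PD-1 in floxed mice by 73.75 CPM in E5 (1 against 2 mice) and by 68.1 in E6. Under anti-PD-1 the genotypes differed by -0.41 ± 0.18 (edgeR, adjusted p = 0.8694), LysM-Cre against floxed, and the 3 mice of each did not overlap. Leaving out 1 mouse moved that difference to -0.63 (without LysM-Cre anti-PD-1 mouse 1) or -0.20 (without mouse 4).

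Klrg1 was the other. It stood at 31.98, 36.92, 23.22 and 46.52 CPM in the floxed isotype mice and at 50.48, 60.84 and 73.78 in floxed anti-PD-1 mice 1, 3 and 4. LysM-Cre mice had 11.76, 64.8, 21.35 and 13.01 with isotype and 14.3, 48.27 and 10.61 with anti-PD-1. Floxed groups did not overlap, and LysM-Cre anti-PD-1 mice lay below the floxed anti-PD-1 mice, while the spread in LysM-Cre mice exceeded the shift. Log2 changes were 1.07 ± 0.45 for anti-PD-1 in floxed mice (edgeR, adjusted p = 0.9588), -1.68 ± 0.66 for genotype under anti-PD-1 (adjusted p = 0.8694) and -1.57 ± 0.77 for the interaction (adjusted p = 1). With no filter on low counts the genotype change under anti-PD-1, -1.71, had an adjusted p of 0.01182 (edgeR), beside 25 genes called in all. The interaction was -0.53 without LysM-Cre isotype mouse 2, and over the 14 fits that left out a mouse it ran from -2.34 to -0.53, while the genotype change under anti-PD-1 ran from -2.44 to -1.19. The class sum held 382 Klrg1 UMIs over 14 mice, so counts are few.

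**Figure D4:**
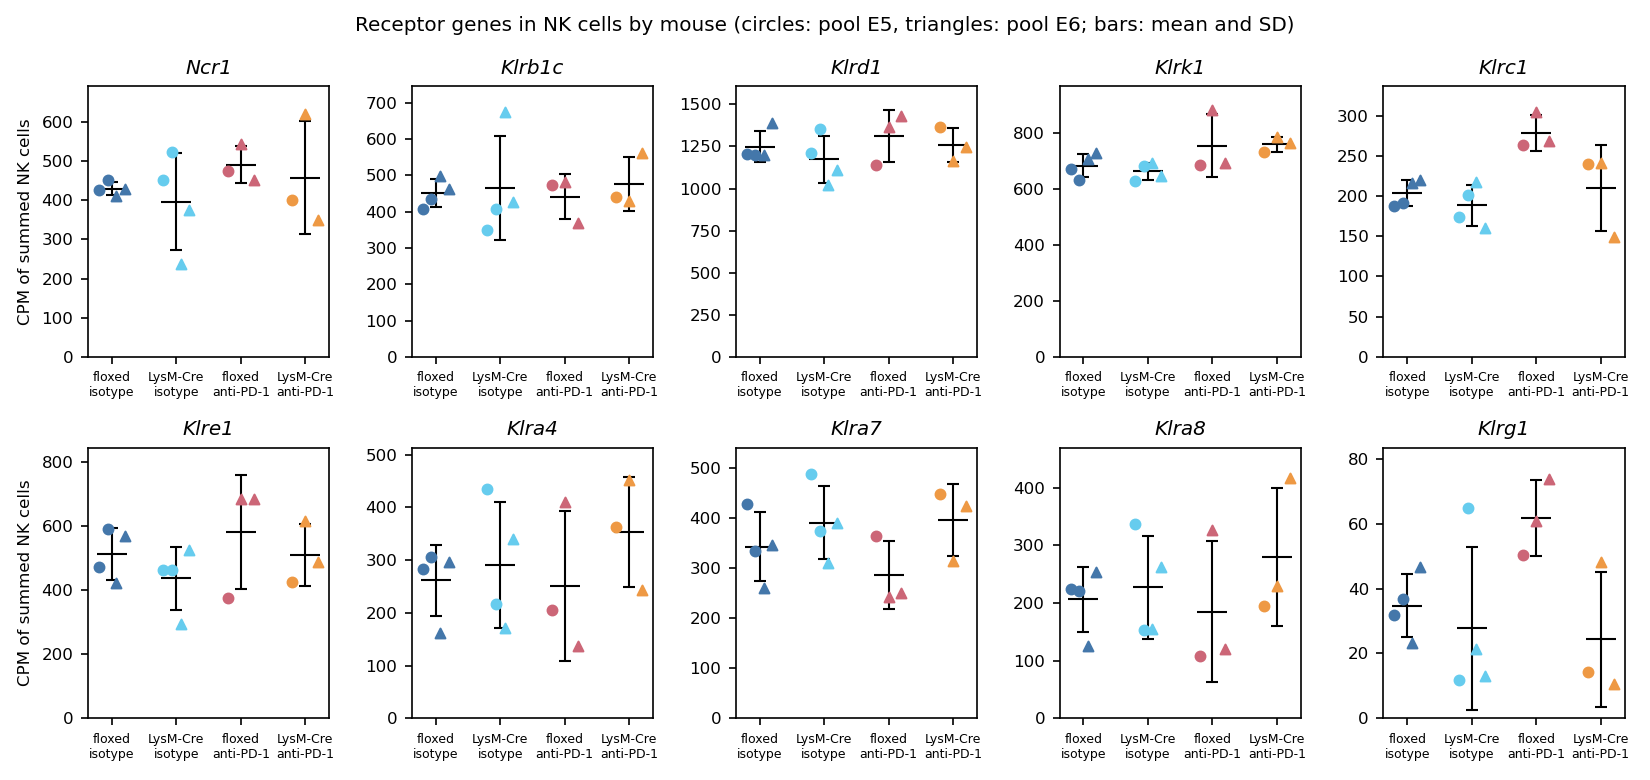
Level of each of the 10 genes in NK-like cells in CPM of counts summed per mouse, by condition; circles are mice of pool E5, triangles of pool E6, and bars show mean and SD. Klrc1 and Klrg1 points of floxed anti-PD-1 mice lie above those of floxed isotype mice, as do those of Ncr1, and the points of the other 7 genes overlap between those conditions. How many of all tested genes separate in this way was not counted.

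Klra7, beside Klrc1 and Klrg1, had an unadjusted p under 0.05 for genotype under anti-PD-1. It stood at 364.2, 243.3 and 250.9 CPM in floxed and 449.1, 313.8 and 424.6 CPM in LysM-Cre mice 1, 3 and 4 given anti-PD-1, with 1 LysM-Cre mouse inside the floxed range. The log2 change, LysM-Cre against floxed, was 0.50 ± 0.19 (edgeR, adjusted p = 0.8694), and under isotype it was 0.24 ± 0.14. Differences within pools had the same sign, 84.9 CPM in E5 (1 mouse each) and 122.1 in E6.

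The other 7 genes had no unadjusted p under 0.05 in any contrast (edgeR). Ncr1 stood at 425.3, 451, 411 and 428.4 CPM in floxed mice given isotype and at 475.9, 544.3 and 452.5 with anti-PD-1, while LysM-Cre mice had 452.7, 522.9, 236.1 and 375.6 with isotype and 400.4, 621.5 and 350.3 with anti-PD-1. All 3 floxed anti-PD-1 mice lay above the floxed isotype mice, by a log2 change of 0.19 ± 0.19 (edgeR, adjusted p = 0.9588), and LysM-Cre values spread to both sides. Klrk1, with 631.7 to 727.1 and 685.1 to 883.7 CPM in floxed mice given isotype and anti-PD-1 and 629.1 to 692.1 and 732.2 to 784.5 CPM in LysM-Cre mice, had log2 changes of 0.08 ± 0.11 and 0.11 ± 0.11 with anti-PD-1. All LysM-Cre anti-PD-1 mice exceeded all LysM-Cre isotype mice in Klrk1 (adjusted p = 0.9072). Klrd1 changes lay between -0.06 and 0.05, and those of Klrb1c between -0.11 and 0.13. Klra4 and Klra8 had the widest spread, 137.7 to 452.6 and 108.2 to 417.5 CPM over the 14 mice, with log2 changes up to 0.48 ± 0.36 and 0.64 ± 0.40 for genotype under anti-PD-1 (adjusted p = 0.9406 and 0.9116). Without floxed anti-PD-1 mouse 3 these were 1.04 and 1.26, and the lowest values were 0.20 for Klra4 without floxed anti-PD-1 mouse 4 and 0.18 for Klra8 without LysM-Cre anti-PD-1 mouse 4. Klre1 ranged from 295.2 to 685.2 CPM and its changes from -0.20 to 0.12.

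At the protein level, the NK1.1 tag on NK-like cells had 3 of its 4 lowest values in the floxed isotype mice. It stood at 61794.8, 81063.9, 52491.2 and 112989.6 antibody CPM in floxed mice given isotype and at 92477.5, 115086 and 90069.5 with anti-PD-1, while LysM-Cre mice had 97720.8, 76624.9, 106163.4 and 121147.6 with isotype and 102151.4, 88916.8 and 100152.4 with anti-PD-1. All pairs of conditions compared overlapped. In monocyte-like cells, which had few Klrb1c UMIs, floxed isotype mice 1 and 3 were also the lowest of 15, at 439.8 and 1043.4 antibody CPM. Floxed isotype mice 2 and 4 had 2102.9 and 2364.3 there. In regulatory T-like cells mice 1 and 3 were again lowest (565.3 and 529.5). In macrophage-like cells mouse 3 was lowest (1510.9) but mouse 1 was not (2173.3). Whether staining or background differed between mice was not tested. The edgeR test over 77 antibodies called 0% (0 antibodies) in each of the 5 contrasts, with 13, 5, 3, 2 and 0 at an unadjusted p under 0.05. NK1.1 itself had a log2 change of 0.60 ± 0.23 for anti-PD-1 in floxed mice (adjusted p = 0.2028) and 0.46 ± 0.21 for genotype under isotype (adjusted p = 0.978). The Klrb1c RNA moved by -0.11 ± 0.18 and 0.06 ± 0.16 in these contrasts.

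In CD8 T-like cells 4 of the 10 genes passed the filter on low counts, and none of the 4 was called. Of 6176 genes, edgeR called 0% for anti-PD-1 in floxed mice, 0.0324% (2 genes) for anti-PD-1 in LysM-Cre mice, 0% for genotype under isotype, 0.0162% (1 gene) for genotype under anti-PD-1 and 0% for the interaction, and DESeq2 called the same numbers. Genes at an unadjusted p under 0.05 numbered 278, 455, 224, 302 and 250. Klre1 differed most. It stood at 249.7, 316.8, 183.7 and 361 CPM in floxed mice given isotype and at 100, 338.2 and 422.6 with anti-PD-1, while LysM-Cre mice had 130.8, 165.6, 212.7 and 134.9 with isotype and 350.1, 207.8, 284.1 and 206 with anti-PD-1. LysM-Cre isotype mice were the low group, with 1 of them above the lowest floxed isotype mouse. The log2 change of genotype under isotype was -0.74 ± 0.26 (edgeR, adjusted p = 0.9998) and that of anti-PD-1 in LysM-Cre mice 0.67 ± 0.29 (adjusted p = 0.6408). With no filter on low counts both passed in edgeR (adjusted p = 0.0006556 and 0.03886), beside 33 and 64 genes called in all under that setting. The log2 changes there were -0.76 and 0.63, so the calls came with nearly the same changes as in the filtered fit. Klrc1 had a log2 change of 0.30 ± 0.13 for anti-PD-1 in LysM-Cre mice (edgeR, adjusted p = 0.6408) and 0.17 ± 0.15 in floxed mice. Klrd1 and Klrk1 had log2 changes of 0.26 ± 0.13 and -0.23 ± 0.14 in LysM-Cre mice and -0.01 ± 0.14 and -0.17 ± 0.15 in floxed mice with anti-PD-1. The NK1.1 tag was tested among 82 antibodies, of which 0%, 1.22% (1 antibody), 0%, 0% and 0% were called, and had a log2 change of 0.83 ± 0.36 for genotype under isotype (edgeR, adjusted p = 0.8609). Here too floxed isotype mice 1 and 3 were low in the tag, at 773.8 and 1172.2 antibody CPM. Floxed isotype mice 2 and 4 had 2759.1 and 2649.7, and LysM-Cre isotype mice 2333.1 to 3411.5.

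Regulatory T-like cells and cluster 9 had enough cells for the genotype contrast under isotype only. Klrg1 in regulatory T-like cells stood at 416.4, 464.3, 327.5 and 183.8 CPM in floxed and at 231.2, 315.6, 376.9 and 309.7 in LysM-Cre isotype mice. The groups overlapped, with a log2 change of -0.20 ± 0.20 (edgeR, adjusted p = 0.9994), beside 0.0401% (2 of 4987 genes) called. In cluster 9, 7 of the receptor genes were tested and 0 called, beside 0.017% (1 of 5896 genes), and 0 of the 7 had an unadjusted p under 0.05. Their log2 changes ran from -0.26 ± 0.16 (Klra7) to 0.49 ± 0.43 (Ncr1).

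When all cells of a mouse were summed, all 10 genes had negative log2 changes with anti-PD-1 in both genotypes, and none passed the test. Klrb1c stood at 59.39, 48, 40.33 and 28.75 CPM in floxed isotype, at 18.04, 5.849, 27.18 and 31.31 in floxed anti-PD-1, at 44.89, 28.71, 79.61 and 52.57 in LysM-Cre isotype and at 45.49, 17.45, 18.08 and 25.53 CPM in anti-PD-1 mice with LysM-Cre. Most anti-PD-1 mice lay below most isotype mice, with overlap in both genotypes. Its log2 changes were -0.98 ± 0.41 (edgeR, adjusted p = 0.3449) and -0.87 ± 0.40 (adjusted p = 0.9077). The median over the 10 genes was -0.85 in floxed and -0.65 in LysM-Cre mice, beside 0.00 and 0.01 over all genes, and 4 and 1 of the 10 had an unadjusted p under 0.05. Of 12824 genes edgeR called 0% in each of the 4 contrasts, with 1613, 638, 125 and 665 at an unadjusted p under 0.05, and DESeq2 called 153, 3, 1 and 2 genes, of which 0 were receptor genes. Genotype contrasts had medians over the 10 genes of -0.01 under isotype and 0.21 under anti-PD-1. In such a sum, fewer cells of a type and less RNA per cell cannot be told apart.

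The numbers of NK-like and CD8 T-like cells were therefore set beside it. NK-like cells are given first. They made up 9.218%, 9.765%, 5.552% and 5.068% of the assigned cells in the floxed mice given isotype and 2.907%, 0.7407%, 6.766% and 7.66% with anti-PD-1. In LysM-Cre mice they made up 6.657%, 4.308%, 9.091% and 10.21% with isotype and 7.312%, 3.197%, 4.584% and 3.851% with anti-PD-1. Means with anti-PD-1 and isotype were 4.518% ± 3.255 against 7.401% ± 2.433 in floxed mice (exact two-sided permutation test, adjusted p = 0.4 over the 4 contrasts) and 4.736% ± 1.808 against 7.567% ± 2.631 in LysM-Cre mice (exact adjusted p = 0.4), n = 4 mice each. The genotypes differed by 0.1658 percentage points under isotype (exact p = 0.9143) and 0.2176 under anti-PD-1 (exact p = 0.8857). The smallest p that 4 against 4 mice allows is 0.02857. Leaving out 1 mouse gave treatment differences of -3.93 to -1.623 points in floxed mice, where the last value was without anti-PD-1 mouse 2 (1 NK-like cell of 135), against -2.882 with all mice, and of -3.917 to -1.949 in LysM-Cre mice, against -2.831. Within pools the treatment difference kept its sign in LysM-Cre mice and changed it in floxed mice, and both genotype differences changed sign. In floxed mice the share differed with anti-PD-1 by -7.668 points in E5 and 1.903 in E6, in LysM-Cre mice by -0.2277 and -5.434, and the genotype differences were -4.009 and 4.341 under isotype and 3.431 and -2.995 under anti-PD-1, with 2 mice a group.

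CD8 T-like cells, which held 46.3% of the Klrc1 UMIs, 27.1% of those of Klrd1, 26.8% of Klrk1 and 22.8% of Klre1, made up 12.43%, 16.94%, 8.134% and 9.023% of the assigned cells in floxed mice given isotype and 3.605%, 3.704%, 7.591% and 7.447% with anti-PD-1. In LysM-Cre mice they made up 16.94%, 8.992%, 15.97% and 7.378% with isotype and 8.817%, 6.217%, 4.584% and 6.682% with anti-PD-1. All floxed anti-PD-1 mice lay below all floxed isotype mice, and in LysM-Cre mice the treatments overlapped over both pools but not within either pool. These values are a description without a test, set down after they were seen, and the part of either cell type in the summed levels was not tested.

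**Figure D5:**
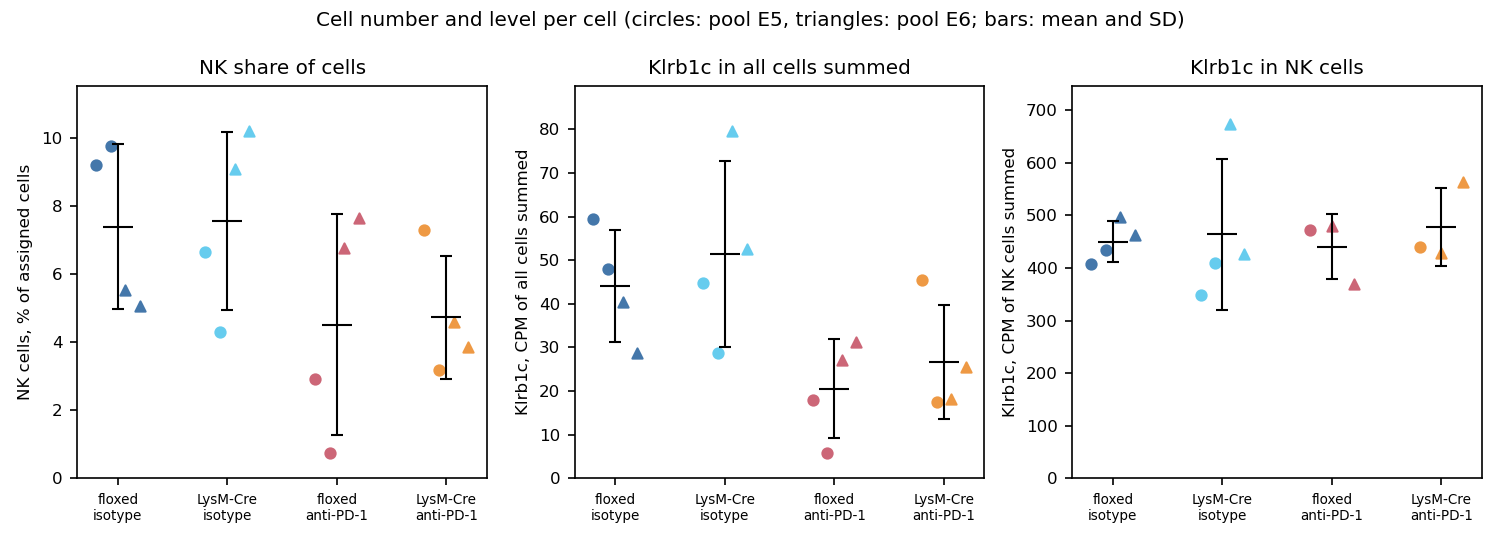
NK-like cells as percent of assigned cells (left), Klrb1c in CPM of all cells summed (middle) and Klrb1c in CPM of NK-like cells summed (right), by condition; circles are mice of pool E5, triangles of pool E6, and bars show mean and SD. Anti-PD-1 mice have the lower means in the left and middle panels, and the means in the right panel lie close together.

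The other genes of the pathway came from lists of receptors, adaptors, ligands, NK cell state and effector genes. Of these, 55 were tested in NK-like cells and 0 were called in any of the 5 contrasts, beside the 0% of all genes given above. At an unadjusted p under 0.05 there were 1 higher and 2 lower for anti-PD-1 in floxed mice, 5 and 1 in LysM-Cre mice, 1 and 2 for genotype under isotype, 3 and 3 under anti-PD-1, and 1 and 1 for the interaction. In CD8 T-like cells 44 were tested and 0 called. Among the 55 were 9 further killer lectin receptors, of which the highest were Klrb1b at 287.9 ± 54.38 CPM, Klrb1f at 187.5 ± 45.4 and Klri2 at 150.6 ± 48.44 (n = 14). Under anti-PD-1, 7 of these 9 had a positive log2 change for genotype, with a median of 0.44 beside 0.02 over all genes. This is 1 of the 5 contrasts, and no list was tested as a set. Adaptors that carry the signal of activating receptors were abundant, with Tyrobp (DAP12) at 2242.7 ± 225.4 CPM, Fcer1g at 1933 ± 186.9 and Hcst (DAP10), the adaptor of NKG2D, at 486 ± 67.64. In CD8 T-like cells Tyrobp stood at 100.1 ± 43.34 CPM and Hcst at 789.4 ± 76.7. The 8 cytotoxic and cytokine genes had a median log2 change of 0.26 with anti-PD-1 in floxed and 0.42 in LysM-Cre mice, 7 of 8 positive in each, beside 0.00 and 0.01 over all genes, and the highest were Gzmc at 7392.5 ± 2504.1 CPM and Gzma.

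Ligands were measured across the CD45-sorted classes. H2-T23, which encodes Qa-1, the ligand of CD94 with NKG2A, stood at 300.9 ± 46.55 CPM in NK-like cells and at 522.5 ± 110.1 in monocyte-like cells. It was highest in regulatory T-like cells at 675.9 ± 164.3 (n = 9). The NKG2D ligand genes were low. Raet1e reached 21.15 ± 7.106 CPM and Raet1d 21.58 ± 11.57 in cluster 13 (n = 7), an unnamed cluster led by Mmp12, Nos2 and Inhba, and H60c did not exceed 0.1714 CPM in any class. Clec2d, whose product is bound by the receptor of Klrb1b, stood at 191.3 ± 26.74 CPM in NK-like cells and 291 ± 68.5 in regulatory T-like cells.

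The genes outside the 10 most like each receptor gene were read from 164 mouse-by-class sums over 18 classes, among 11642 genes, as the highest Pearson correlation of log2(CPM + 1). Sums of 1 mouse share a library and classes share markers, so these are descriptions. Ncr1 lay closest to Klrb1a (0.8984) and Klra9 (0.8847), Klrb1c to Eomes (0.9052) and Klrb1a (0.9015), and Klra7 to Klrb1a (0.9036) and Klra9 (0.8937). Klrd1 lay closest to Cd7 (0.833), Klrk1 to Slamf7 (0.791), Klrc1 to Klrc2 (0.935) and Klre1 to Samd3 and Eomes (both 0.908). Klra8 lay closest to Khdc1a (0.928) and Phactr3 (0.913). The nearest genes of Klra4 were no killer receptors but Vegfc (0.8647) and Adamts14 (0.8209), and its nearest among the 10 was Klra8 (0.7475). Klrg1 lay closest to Ttn (0.7595) and Arnt2 (0.7581), and to Klrc1 (0.5017) among the 10.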

How the data were processed

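The authors deposited filtered matrices of unnormalized UMI counts per gene, hashtag and antibody for 2 pools. They come from Cell Ranger 6.1.2 per the file headers; version 3.0.1 and build mm10 stand in the submitters' processing notes. The matrices hold 88 surface antibodies. An antibody table by the submitters gave each hashtag's condition under the names wild type and KO, read here as the floxed and LysM-Cre genotypes of the labels; it prints the same sequence for a pair of floxed isotype hashtags. The replicates are separate mice, told apart by hashtags alone.

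Barcodes under 500 UMIs or 200 genes, or over 10% mitochondrial UMIs, were dropped, and HTODemux (Seurat 5.3.0) assigned 17320 cells to 1 hashtag. Doublets of 2 hashtags were removed. Scrublet's automatic threshold called 1 cell and so did not work for doublets of 1 hashtag, and leaving out the top 5% of scores was an alternative. Clusters came from leidenalg 0.10.2 in scanpy 1.11.5 at resolution 1, on 15 neighbours in 30 components of 2000 variable genes.

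Counts were summed per mouse and class (at least 20 cells, at least 3 such mice per condition) and tested by the quasi-likelihood method of edgeR 4.0.16, with pool as covariate, TMM scaling, the filterByExpr minimum and Benjamini-Hochberg adjustment over all genes of a contrast. DESeq2 1.42.0, RLE size factors, no low-count filter, no pool term, another hashtag rule and leaving out each mouse were alternatives. Shares were compared by exact permutation tests. The edgeR fit was tested on simulated counts with known changes for anti-PD-1 in floxed mice, among genes above a set minimum level. It recovered 54.5% of 2-fold changes in NK-like and 50.5% in CD8 T-like counts. Of 4-fold changes it recovered 90.9% and 87%, with 8 and 5 false calls.

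The receptor genes and lists were chosen with earlier results of these data known. All 10 are reported. Other genes come from the lists, those past the test or otherwise the highest in the class, and the most similar genes by correlation. Genes outside this rule, such as the leading genes of clusters, were named after their values were seen.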

Additional observations from a re-analysis of the deposited data

Results flagged for a closer look

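In 57 groups of 4 mice the highest and lowest values were set against the others, and chance alone singles out about 1 in 20 such groups. In 4 groups 1 mouse stood far from the rest. Klrd1 in NK-like cells was 1388.2 CPM in floxed isotype mouse 4 against 1200.2 to 1206.4 in the other 3. Klra4 in NK-like cells was 160.9 CPM in floxed isotype mouse 3, where the others had 282.8 to 306.2. Klrd1 in CD8 T-like cells was 685 CPM in LysM-Cre isotype mouse 4 and 823.5 to 850.7 in the others. Klra4 in fibroblast-like cells was 112.5 CPM in LysM-Cre anti-PD-1 mouse 2 and 32.89 to 45.47 in the others.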

How the results depend on the processing

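No paired analysis was possible because the antibody table gives the mice of a condition no numbers; pool was a covariate in every fit except where named. In NK-like cells, 40 of 40 levels moved by less than 1 SD under the other settings, and the log2 changes of the 10 genes and the NK1.1 tag kept their side of the threshold in all 14 rounds that left out a mouse (770 values over 5 contrasts) and in 409 values under other settings, with 1 exception, Klrg1. With no low-count filter, edgeR called 27, 16, 30, 25 and 16 genes in NK-like cells and 44, 64, 33, 32 and 21 in CD8 T-like cells (order of contrasts as above), 40 for anti-PD-1 in floxed mice and 1 for genotype under anti-PD-1 over all cells, 8 in cluster 9 and 17 in regulatory T-like cells. Calls of receptor genes arose only there, for Klrg1 in NK-like cells and for Klre1, Klrb1c (log2 change 1.53, adjusted p = 0.001642) and Klra7 in CD8 T-like cells, where 2 cells held 19 and 18 of the 77 Klra7 UMIs. DESeq2 called 153, 3, 1 and 2 genes over all cells and 0 in cluster 9. For anti-PD-1 in LysM-Cre CD8 T-like cells, 0 genes were called with RLE and with the ratio hashtag rule, and 1 without the top Scrublet scores, with the receptor genes among the variable genes, and with shared barcodes kept; the first and last of these 3 were chosen after seeing the data, as were the fits of cluster 9 and regulatory T-like cells. Genotype under isotype gave 2 there with the receptor genes among the variable genes. Without the pool term cluster 9 gave 0 and regulatory T-like cells 1. The ratio hashtag rule gave 1 antibody for anti-PD-1 in floxed mice in NK-like and in CD8 T-like cells and 0 in LysM-Cre CD8 T-like cells, and moved the level of Ncr1 in CD8 T-like cells to 7.39 CPM, the level of Klrb1c in CD8 T-like cells to 54.16, the level of Klrc1 in CD8 T-like cells to 326.3 and the level of Klra7 in CD8 T-like cells to 73.9. Under the ratio hashtag rule the cells were also clustered anew, so the CD8 T-like class itself differed. Leaving out each mouse in turn gave 0 to 1 genes for genotype under isotype in NK-like cells. In CD8 T-like cells it gave 0 to 4 for anti-PD-1 in LysM-Cre mice, 0 to 1 for genotype under isotype and 0 to 2 under anti-PD-1. Over all cells it gave 0 to 5 for anti-PD-1 in floxed mice and 0 to 1 for genotype under anti-PD-1, in cluster 9 0 to 5 and in regulatory T-like cells 1 to 8. Antibodies ranged in NK-like cells over 0 to 1 (anti-PD-1, floxed), 0 to 2 (genotype, anti-PD-1) and 0 to 1 (interaction), and in CD8 T-like cells over 0 to 5, 1 to 2 (anti-PD-1, LysM-Cre), 0 to 2 and 0 to 1. The genotype difference of the NK-like share ranged from -0.7156 to 1.252 points under isotype, below 0 without floxed isotype mouse 3 (-0.4504) or 4 (-0.6118) or LysM-Cre isotype mouse 3 (-0.3423) or 4 (-0.7156). Under anti-PD-1 it ranged from -1.042 to 1.265, below 0 without floxed anti-PD-1 mouse 1 (-0.3194) or 2 (-1.042) or LysM-Cre anti-PD-1 mouse 1 (-0.641). The cause of these shifts was not tested. NK-like cells numbered under 20 in 2 anti-PD-1 mice, and the 382 Klrg1 UMIs in NK-like cells limit that gene.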
